A study of Mus musculus with 32 samples.

Results

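Metallothioneins and zinc transport are described here across 32 mouse livers. Of the 7 genes listed for this group by name, 5 were measured on a probe set that belongs to 1 gene, out of 22180 such genes on the array. These are the metallothioneins Mt1 and Mt2, the zinc-sensing transcription factor Mtf1, and the zinc importers Slc39a14 and Slc39a4. The exporters Slc30a1 and Slc30a10 lay only on 2 probe sets each that are annotated with a second gene, and no value is given for them. Each of the 5 measured genes had 1 probe set of its own, and a further probe set of Mtf1 that is annotated with several genes was not used. Values are log2 expression values, so that a difference of 1 is a 2-fold difference in signal.

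The livers came from 14-week-old male wild-type C57BL/6NTac mice that had fasted for 10 h, with 1 array per mouse. The 4 groups were 9 palm oil clamped, 9 palm oil basal, 7 control clamped and 7 control basal mice. Palm oil mice had received 2 g/kg palm oil by gavage and control mice water. Basal mice were killed under isoflurane 6 h after the gavage. Clamped mice carried a jugular vein catheter, placed under ketamine and xylazine some days earlier. From 6 h after the gavage they received a glucose tracer (110 min) and then insulin at 15 pmol/kg/min with glucose held steady, and they were killed with intravenous ketamine and xylazine. Surgery, anaesthetic, tracer, time and insulin therefore cannot be told apart in the comparison of clamped with basal mice. All clamped mice also had lower animal numbers (15 to 32) than all basal mice (33 to 52), which cannot be told apart from the clamp either.

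Metallothioneins are small cysteine-rich proteins that bind zinc and copper, and the liver makes large amounts of them. In the textbook circuit, free zinc in the cell binds MTF1, which attaches to metal response elements in the promoters of Mt1, Mt2 and the exporter Slc30a1. Glucocorticoids and interleukin-6 through STAT3 are known as further inducers of hepatic metallothionein, and interleukin-6 is also a known inducer of Slc39a14 (ZIP14), which brings zinc, manganese and iron into hepatocytes. Slc39a4 (ZIP4) is best known for zinc uptake in the small intestine, and Slc30a10 exports manganese.

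Mt1 and Mt2 lie next to each other on chromosome 8 of the GRCm38 build, Mt2 from 94172618 to 94173567 and Mt1 from 94178883 to 94180327. Their promoters are shown because both genes moved together in these livers and because the metal response element is the classical control site of the family. Each sequence runs from 250 bases before to 50 bases after a RefSeq transcript start (GRCm38.p6, plus strand), 5′ to 3′. Capitals mark each match to the metal response element core on either strand, searched as TGCACNC or TGCGCNC. The Mt1 window is chr8:94178839-94179138, the Mt2 window chr8:94172368-94172667.
Mt1: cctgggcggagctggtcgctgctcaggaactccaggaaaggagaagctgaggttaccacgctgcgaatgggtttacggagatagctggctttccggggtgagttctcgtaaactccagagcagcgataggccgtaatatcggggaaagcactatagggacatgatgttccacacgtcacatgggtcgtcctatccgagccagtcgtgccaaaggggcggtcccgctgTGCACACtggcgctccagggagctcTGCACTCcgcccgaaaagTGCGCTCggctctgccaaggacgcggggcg
Mt2: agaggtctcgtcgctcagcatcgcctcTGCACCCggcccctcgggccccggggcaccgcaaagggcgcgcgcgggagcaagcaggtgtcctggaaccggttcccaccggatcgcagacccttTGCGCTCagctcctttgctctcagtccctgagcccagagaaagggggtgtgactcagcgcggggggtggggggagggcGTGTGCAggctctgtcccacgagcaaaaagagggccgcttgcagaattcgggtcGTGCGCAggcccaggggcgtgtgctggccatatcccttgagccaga
The Mt1 window held 3 matches and the Mt2 window 4, with no overlaps among them. The window used for Mt1 belongs to a start inside the gene record, so that other starts of the gene are not covered. Of 32851 RefSeq promoters of this length, 25.7% held at least 1 match and 1.97% held 3 or more. Promoters were found for 5 of the 7 listed genes. Among the others, the windows of Slc30a10, Slc30a1 and Mtf1 held 3, 2 and 0 matches, of which 2 in Slc30a10 overlap. No window of the 5 held the STAT pattern TTCNNNGAA (8.30% of promoters) or the E-box CACGTG (7.15%), which says only that these letters are not in these windows.

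The arrays differed in ways that the labels do not define. Hepatocyte markers averaged between 10.2 and 10.7 log2 units on every array, and the enterocyte markers between 2.29 and 2.64. That enterocyte average includes Fabp2, which was high, with group means between 9.29 and 9.67. The 7 basal mice with an animal number of 44 or higher (3 palm oil, 4 control) had a narrower spread of values than the other arrays. Their hepatocyte markers averaged between 10.24 and 10.35, against 10.41 or more on every other array. Markers of pancreatic acinar cells averaged over 6 log2 units on 12 arrays, called acinar-rich here, 9 of them basal. The results on the zinc genes are therefore also given without these arrays wherever a call changed. No 2 arrays held identical values.

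The first question was which zinc genes differ between clamped and basal livers. Mt1, Mt2 and Slc39a14 were higher in clamped mice of both gavage groups, by between 0.90 and 1.25 log2 units, which is between 1.86-fold and 2.37-fold. Mtf1 and Slc39a4 did not pass the limma test in either. Thus 3 of the 5 measured genes were called by limma at an adjusted p under 0.05 in each gavage group, all higher. Over all genes tested, 3.76% were called higher in palm oil mice and 4.66% in control mice, and the median difference over all genes was -0.02 in each. The median over the 5 zinc genes was 0.90 in palm oil mice and 1.19 in control mice. The 2 comparisons share no array.

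**Figure D1:**
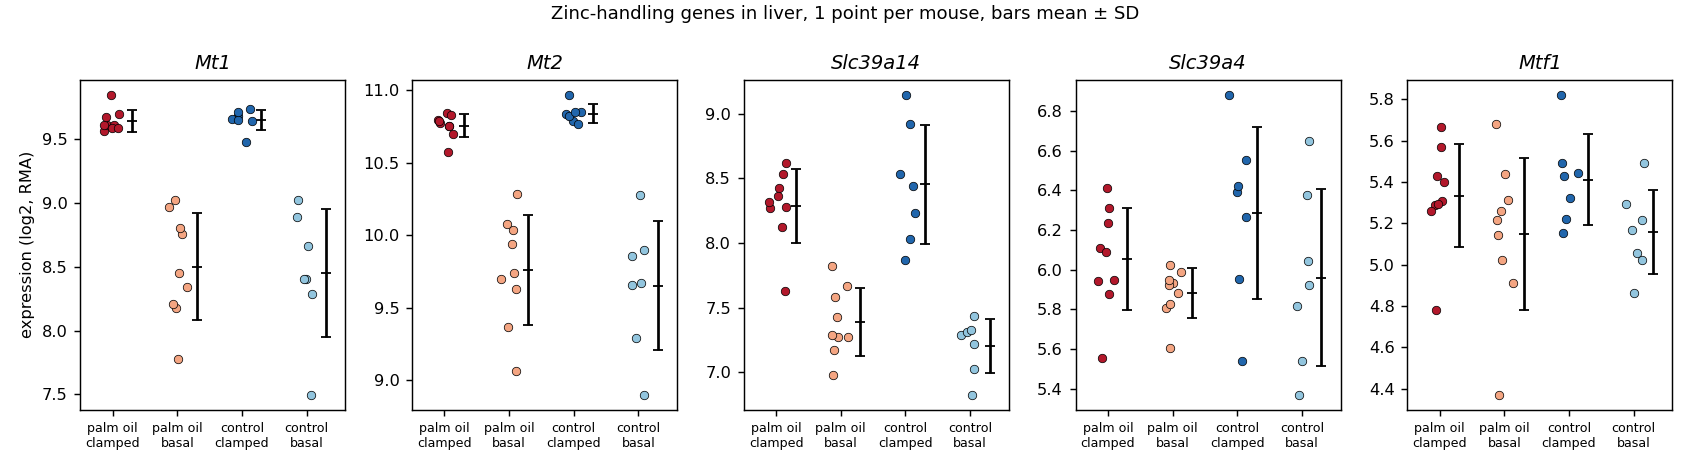
Log2 expression of the 5 measured zinc genes in every mouse, 1 panel per gene, with palm oil clamped, palm oil basal, control clamped and control basal mice from left to right. Points are mice and bars the group mean with SD (n = 9, 9, 7 and 7). The clamped points of Mt1 and Mt2 lie above all basal points, and those of Mtf1 and Slc39a4 overlap with them.

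Mt1 ranged between 9.56 and 9.85 (median 9.61) in palm oil clamped mice, against 7.78 and 9.02 (median 8.46) in palm oil basal mice. In control mice it ranged between 9.48 and 9.74 (median 9.66) under the clamp, against 7.50 and 9.03 (median 8.40) in the basal state. Every clamped mouse thus lay above every basal mouse, in both gavage groups. The means were 9.64 ± 0.088 and 8.50 ± 0.417 in palm oil clamped and basal mice (SD, n = 9 each), a difference of 1.14 ± 0.15 (SE, limma adjusted p = 1.70e-06). In control mice the means were 9.65 ± 0.082 and 8.45 ± 0.503 (SD, n = 7 each), a difference of 1.20 ± 0.17 (SE, limma adjusted p = 7.50e-06). As folds, Mt1 was 2.21 times higher in palm oil clamped than basal mice (95% interval 1.79 to 2.72) and 2.30 times higher in control mice (1.81 to 2.91).

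Mt2, the second abundant hepatic metallothionein, behaved alike. In palm oil mice it ranged between 10.57 and 10.84 (median 10.78) under the clamp, against 9.06 and 10.28 (median 9.74) in the basal state. In control mice the range was 10.77 to 10.97 (median 10.83) under the clamp, against 8.90 to 10.28 (median 9.67) in the basal state. Again no clamped mouse overlapped with a basal mouse of its gavage group. The difference was 1.00 ± 0.14 in palm oil mice (SE, n = 9 each, limma adjusted p = 3.27e-06), a 2.00-fold rise. In control mice Mt2 was 2.28 times higher under the clamp (95% interval 1.84 to 2.83). Over all genes, every clamped mouse lay above every basal mouse for 0.866% of genes in palm oil mice and 1.39% in control mice.

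Slc39a14 (chromosome 14, 70303467 to 70351452) was the importer that rose. It ranged between 7.63 and 8.62 (median 8.32) in palm oil clamped mice, against 6.98 and 7.82 (median 7.29) in palm oil basal mice. All but 1 of the 9 palm oil clamped mice lay above the highest basal mouse. In control mice it ranged between 7.87 and 9.15 (median 8.44) under the clamp, against 6.83 and 7.43 (median 7.29) in the basal state, with no overlap. The difference was 0.90 ± 0.14 in palm oil mice (SE, n = 9 each, limma adjusted p = 4.06e-05) and 1.25 ± 0.16 in control mice (SE, n = 7 each, limma adjusted p = 2.29e-06). These are 1.86-fold (95% interval 1.52 to 2.28) and 2.37-fold (1.89 to 2.98) rises.

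Slc39a4 (chromosome 15, 76612383 to 76618506) averaged 6.05 ± 0.258 in palm oil clamped and 5.88 ± 0.126 in palm oil basal mice (SD, n = 9 each). In control mice it averaged 6.29 ± 0.432 under the clamp and 5.96 ± 0.446 in the basal state (SD, n = 7 each). The clamped and basal ranges overlapped in both gavage groups. The differences of 0.17 (95% interval -0.13 to 0.47) and 0.33 (-0.01 to 0.67) had limma adjusted p = 0.617 and 0.266. None of the 7 enterocyte markers was called in either gavage group.

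Mtf1 (chromosome 4, 124802549 to 124849800), whose protein senses zinc, averaged 5.33 ± 0.248 in palm oil clamped and 5.15 ± 0.369 in palm oil basal mice (SD, n = 9 each). In control mice the means were 5.41 ± 0.220 under the clamp and 5.16 ± 0.203 in the basal state (SD, n = 7 each). The differences were 0.18 (95% interval -0.08 to 0.44, limma adjusted p = 0.496) and 0.25 (-0.04 to 0.55, limma adjusted p = 0.336). The exact permutation test of the means gave an unadjusted p = 0.24 in palm oil and 0.0431 in control mice. Against the basal animals numbered 44 or higher alone, Mtf1 differed by 0.53 in palm oil mice (limma adjusted p = 0.0554), and against the other basal animals by 0.01 (limma adjusted p = 0.978). In control mice these values were 0.24 and 0.27, and none was called. Whether the activity of the protein differed was not measured.

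The calls on these 5 genes did not rest on the basal animals numbered 44 or higher or on the acinar-rich arrays. Animal number as such could not be tested, because every clamped mouse had a lower number than every basal mouse. Without the basal animals numbered 44 or higher, Mt1 differed by 1.12 in palm oil and 1.20 in control mice, Mt2 by 1.02 and 1.30, and Slc39a14 by 0.82 and 1.11. With those basal animals alone the differences were 1.19 and 1.20 for Mt1, 0.96 and 1.11 for Mt2, and 1.06 and 1.35 for Slc39a14. All 12 of these passed the limma test, and the 3 genes were called in both gavage groups without the acinar-rich arrays as well. Leaving the acinar-rich arrays out kept 4 palm oil and 3 control basal mice, whose acinar markers still averaged between 1.91 and 5.84. Neutrophil markers moved with the clamp: the mean level of the 8 genes of that list ranged between 3.16 and 3.93 in palm oil clamped mice against 2.03 and 2.42 in palm oil basal mice. In control mice it ranged between 3.10 and 3.97 under the clamp, against 1.99 and 2.77 in the basal state. Of these 8 genes 5 rose in each gavage group, with S100a8 up by 3.85 and 3.58 log2 units. Over all genes 3.76% were called higher in palm oil and 4.66% in control mice. The other neutrophil markers were not called, and Ngp averaged lower in control clamped than control basal mice. Kupffer cell markers rose for 3 and 4 of 8, and the others were not called. Among those, Clec4f and Cd5l averaged lower under the clamp in both gavage groups. The part of these cells in the metallothionein signal was not tested, and in whole liver more cells of a type and more RNA per cell cannot be told apart.

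**Figure D2:**
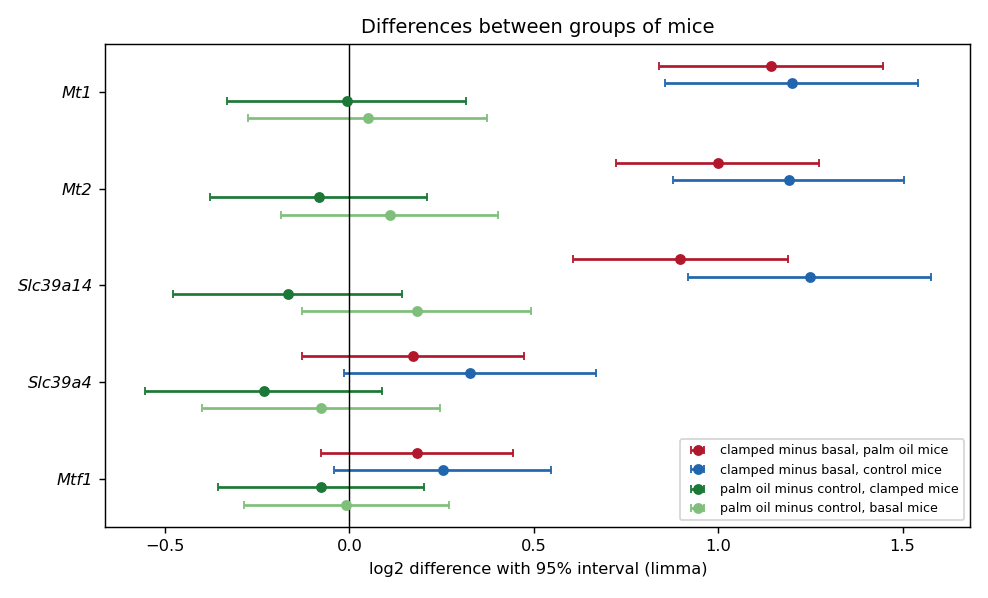
Log2 difference with 95% interval (limma, 32 arrays) of the 5 zinc genes, with clamped minus basal in palm oil (red) and control mice (blue), and palm oil minus control in clamped (dark green) and basal mice (light green). Mt1, Mt2 and Slc39a14 lie between 0.90 and 1.25 in clamped minus basal mice, and every interval of palm oil minus control includes 0. The intervals use a spread shared by all groups. For palm oil minus control of Mt1 and Mt2 they are too wide in clamped and too narrow in basal mice.

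The second question was whether the fat gavage changed these genes. None of the 5 passed in palm oil against control mice, basal or clamped, and over all genes 0% were called in either comparison by limma. At an unadjusted p under 0.05 limma counted 0 of the 5 zinc genes in each, and 1134 and 781 of all genes. In basal mice Mt1 differed by 0.05 (95% interval -0.28 to 0.37), Mt2 by 0.11 (-0.19 to 0.40) and Slc39a14 by 0.18 (-0.13 to 0.49). In clamped mice the differences were -0.01 (-0.33 to 0.32), -0.08 (-0.38 to 0.21) and -0.17 (-0.48 to 0.14). Every one of these intervals ends short of the rise seen under the clamp. The model takes 1 spread per gene over all 4 groups. The SDs of Mt1 and Mt2 lay between 0.065 and 0.088 in clamped mice and between 0.379 and 0.503 in basal mice. Their intervals are therefore too wide for clamped mice and too narrow for basal mice.

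Slc39a4 differed between palm oil and control mice by -0.08 (95% interval -0.40 to 0.24) in the basal state and -0.23 (-0.56 to 0.09) under the clamp. Mtf1 differed by -0.01 (-0.29 to 0.27) and -0.08 (-0.36 to 0.20). For Mt2 in clamped mice, where the values lay close together, the exact two-sided permutation test of the means gave an unadjusted p = 0.0268 (10.76 ± 0.081 in 9 palm oil mice, 10.84 ± 0.065 in 7 control mice). This test does not share the spread of the basal mice, and its p is not adjusted for the 10 such tests of palm oil.

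The third question was whether the clamp difference depended on the gavage. The interaction was called for none of the 5 zinc genes and for 0% of all genes, with 773 genes at an unadjusted p under 0.05 in limma and none of the 5 among them. The interaction was -0.06 for Mt1 (95% interval -0.51 to 0.40) and -0.19 for Mt2 (-0.61 to 0.22). For Slc39a14, whose rise was 0.90 in palm oil and 1.25 in control mice, it was -0.35 (-0.79 to 0.09, limma adjusted p = 1.00). Those 2 rises were thus not shown to differ.

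Mt1 and Mt2 moved together from mouse to mouse. With the group means removed, the values of the pair correlated over the 32 arrays with Pearson's r = 0.836 (permutation p = 5.00e-05, adjusted p = 5.00e-04 over the 10 pairs of measured genes) and Spearman's rho = 0.683 (permutation, adjusted p = 0.00263). Without the 2 arrays farthest from the median of Mt1, r was 0.686 (permutation p = 0.00371). Within groups r was 0.214 in palm oil clamped mice and 0.905 in palm oil basal mice (exact permutation p = 0.515 and 9.18e-04, n = 9 each). It was 0.524 in control clamped and 0.805 in control basal mice (exact permutation p = 0.217 and 0.0367, n = 7 each). The lowest Mt1 value of the basal control mice, 7.50, and their lowest Mt2 value, 8.90, came from the same mouse. Whether probes of either gene also bind the transcript of the other was not tested.

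**Figure D3:**
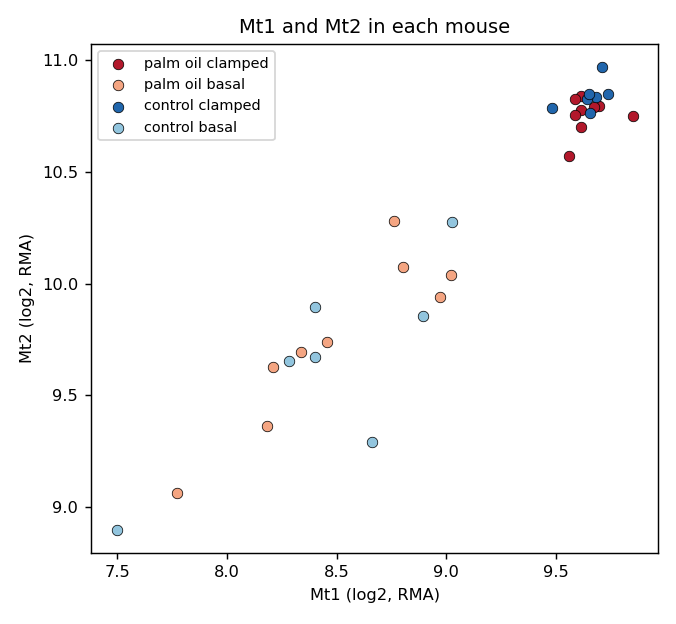
Mt2 against Mt1 (log2 expression) in each of 32 mice, coloured by group. Clamped mice of both gavage groups sit in a tight cluster from 9.48 up for Mt1 and from 10.57 up for Mt2, and basal mice spread along a rising line between 7.50 and 9.03 for Mt1.

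The gap between Mt2 and Mt1 was also compared. Mt2 minus Mt1 within an array averaged 1.11 ± 0.106 in palm oil clamped and 1.26 ± 0.177 in palm oil basal mice (SD, n = 9 each), a difference of -0.14 (exact permutation p = 0.0545). In control mice it averaged 1.19 ± 0.073 and 1.20 ± 0.301 (SD, n = 7 each), a difference of -0.01 (exact permutation p = 0.954). Neither passed, and the palm oil value crossed the threshold under repeated quantile normalization (-0.19, exact permutation p = 0.0372) and when 1 of 4 arrays was left out. These were palm oil basal replicates 1 (-0.18) and 2 (-0.17) and palm oil clamped replicates 4 and 9 (-0.16 each).

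Slc39a14 was the only other gene of the 5 that correlated with the metallothioneins. Its r was 0.362 with Mt1 (permutation, adjusted p = 0.0467) and 0.337 with Mt2 (permutation, adjusted p = 0.0574), with rho of 0.567 and 0.564 (permutation, adjusted p = 0.00263 each). Without the 2 arrays farthest from the median of Mt1 or Mt2, r was 0.387 and 0.342. With means taken separately for the basal animals numbered 44 or higher, r was 0.366 and 0.402, and both then passed. Within groups, r of Slc39a14 with Mt1 ran from 0.104 in control basal to 0.802 in control clamped mice. With Mt2 it ran from 0.207 to 0.823 in the same 2 groups. No pair with Mtf1 or Slc39a4 passed.

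Clamped mice differed among themselves in metallothionein level far less than basal mice did. The SD of Mt1 was 0.088 in palm oil clamped against 0.417 in palm oil basal mice, and 0.082 in control clamped against 0.503 in control basal mice. For Mt2 it was 0.081 against 0.379 in palm oil mice and 0.065 against 0.446 in control mice. The ratios of clamped over basal SD were 0.211 and 0.213 in palm oil mice and 0.163 and 0.147 in control mice. Over the 734 genes with a mean above 8 log2 units, the median ratio was 0.827 in palm oil mice and 1.11 in control mice, and between 1.23% and 1.91% of these genes had a ratio as low. The test of the spread was chosen after these values had been seen.

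In palm oil mice the distance of each mouse from its group median was smaller under the clamp for Mt1 (0.055 against 0.339, exact permutation p = 0.00132, n = 9 each) and Mt2 (0.052 against 0.288, exact permutation p = 0.00531). In control mice the distances were 0.051 against 0.343 for Mt1 (exact permutation p = 0.0425, n = 7 each) and 0.042 against 0.312 for Mt2 (exact permutation p = 0.0216). The p-values are unadjusted over 10 such tests, and they are approximate, because each distance was taken from the median of its own group. In control mice the call was lost without the basal animals numbered 44 or higher, which leaves 3 basal mice with an SD of 0.194 for Mt1 and 0.214 for Mt2 (exact permutation p = 0.267 and 0.483). It was also lost there without the acinar-rich arrays, which leaves 3 basal mice too (SD 0.699 and 0.505, exact permutation p = 0.167 each). In palm oil mice both genes passed without either set of arrays. Slc39a14, Slc39a4 and Mtf1 gave no p under 0.05 in either gavage group.

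Genes of like signal gave a measure for these SDs. Among genes within 0.5 log2 units of Mt1 or Mt2 in the same group, the median SD lay between 0.092 and 0.151 in clamped mice and between 0.154 and 0.184 in basal mice. In clamped mice the SD of Mt1 and Mt2 was above that of 12.4% to 39.8% of these genes, and in basal mice above that of 93.7% to 97.6%.

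**Figure D4:**
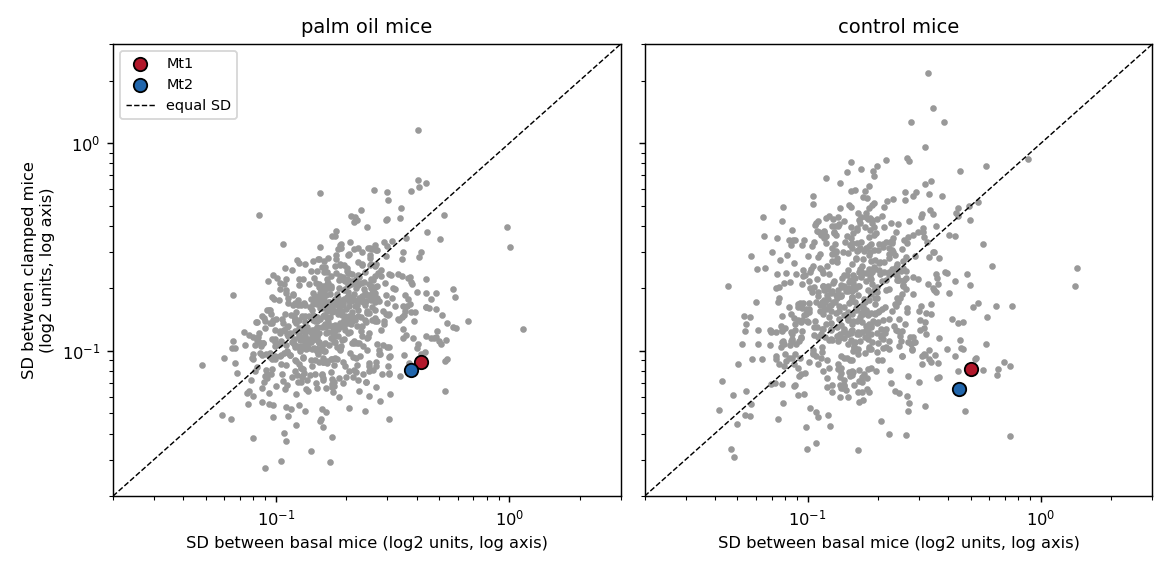
SD between clamped mice against SD between basal mice (log2 units, log axes) for the 734 genes with a mean above 8 log2 units, in palm oil and control mice, with Mt1 and Mt2 in colour. Mt1 and Mt2 lie far below the line of equal SD, at ratios between 0.147 and 0.213.

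The remaining metallothioneins Mt3 and Mt4 were near the background, with group means between 0.99 and 1.92 log2 units, and neither was called. Of 12 other ZIP importers, 0 rose or fell in palm oil mice, and 3 rose in control mice. These were Slc39a10 (0.91 ± 0.24) and Slc39a6 (0.78 ± 0.22), both importers of the plasma membrane, and Slc39a9 (0.40 ± 0.12). Slc39a6 averaged 2.36 in control clamped and 1.59 in control basal mice, so that its basal level lay as near the background as Mt3 and Mt4. None of the 3 was called without the acinar-rich arrays, nor without the basal animals numbered 44 or higher. Without those animals 1 other importer, Slc39a2, was called lower in palm oil (-0.63) and control mice (-0.70), also near the background with group means between 1.59 and 2.03 over all arrays. Over all genes 7.57% were called in palm oil mice and 8.75% in control mice in either direction.

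Of 8 other ZnT transporters, Slc30a5, which loads zinc into the early secretory pathway, rose in both gavage groups. It averaged 6.43 ± 0.262 in palm oil clamped and 5.81 ± 0.243 in palm oil basal mice (SD, n = 9 each), a difference of 0.61 ± 0.15 (SE, limma adjusted p = 0.00578). In control mice it averaged 6.85 ± 0.439 and 5.41 ± 0.357 (SD, n = 7 each), a difference of 1.45 ± 0.17 (SE, limma adjusted p = 3.19e-07), and no clamped mouse overlapped with a basal one. The interaction of -0.83 (95% interval -1.29 to -0.38) had an unadjusted p = 6.83e-04 and a limma adjusted p = 1.00, so it was not called. Without the acinar-rich arrays the difference was 0.46 in palm oil mice (limma adjusted p = 0.356) and 1.61 in control mice (limma adjusted p = 6.30e-04). Slc30a4, a vesicular zinc transporter, rose in control mice (0.70 ± 0.22), a call lost without either set of arrays.

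**Figure D5:**
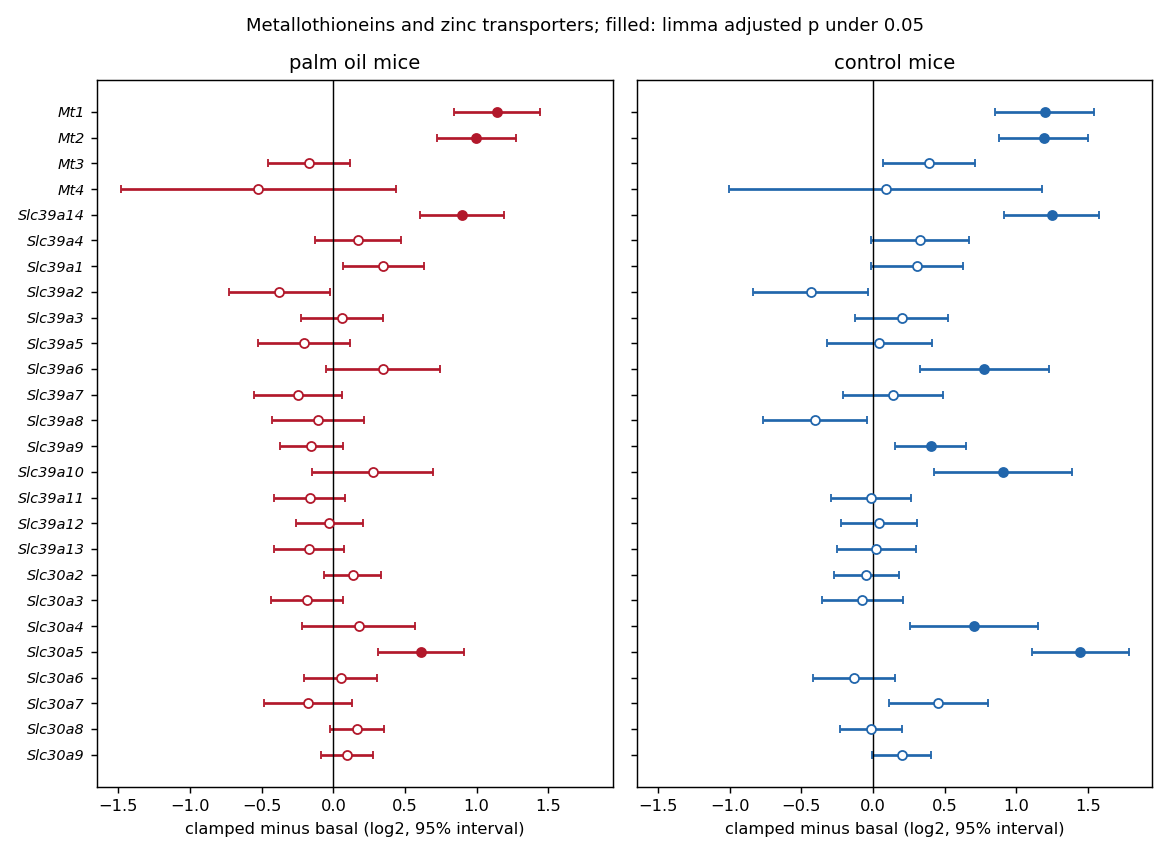
Log2 difference, clamped minus basal, with 95% interval for the measured metallothioneins, ZIP importers and ZnT transporters in palm oil (left) and control mice (right), with filled points for a limma adjusted p under 0.05. Mt1, Mt2, Slc39a14 and Slc30a5 are the genes called in both gavage groups.

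Genes of other metals moved in both directions. Over all genes 3.8% were called lower in palm oil mice and 4.09% in control mice. Of 9 genes of copper handling, Atp7b, which exports copper into bile, fell by 0.75 in palm oil and by 0.70 in control mice. Ccs, the copper chaperone of superoxide dismutase, fell by 0.31 and by 0.56, and Cp (ceruloplasmin, the copper protein of plasma) rose by 0.49 and 0.42. Slc31a1, the copper importer CTR1, rose by 0.31 in control mice. Among 4 further measured genes of manganese and divalent metal transport, Slc11a2, an iron transporter, rose by 0.68 and 0.73. Over 47 other settings and fits without 1 array, the called genes of this list, Slc39a14 included, dropped to 1 in 24 for control mice and in 16 for palm oil mice. Without the basal animals numbered 44 or higher, Atp7b was called in both gavage groups, Ccs in control mice and Cp in palm oil mice, and neither Slc31a1 nor Slc11a2 in either.

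Known or proposed targets of MTF1 outside the metallothioneins did not share 1 direction. The list was not sorted by whether MTF1 raises or lowers a gene, so these directions give no measure of MTF1 activity. Of 8 measured genes, 1 rose and 2 fell in palm oil mice, with a median of -0.14, and 2 rose and 1 fell in control mice, with a median of -0.15. Ndrg1, a gene of hypoxia and stress, rose by 0.64 in palm oil and 0.58 in control mice. Gclc, which makes glutathione, fell by 0.45 in palm oil mice, and Txnrd2, the mitochondrial thioredoxin reductase, by 0.30. In control mice Selenoh, a selenoprotein of the nucleus, fell by 0.85 and Slc39a10 is counted again. Without the acinar-rich arrays no gene of this list was called in palm oil mice and 1 in control mice.

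Genes linked to the other known inducers of metallothionein were followed as lists. Beside them, 3.76% of all genes were called higher in palm oil and 4.66% in control mice. These are RNA levels, and the activity of the pathways was not measured. Of 12 genes of interleukin-6 and STAT3 signalling, 7 rose and 0 fell in each gavage group, with medians of 0.58 in palm oil and 0.45 in control mice. Junb rose by 2.45 and 2.50, Socs3, the feedback inhibitor of STAT3, by 1.98 and 2.25, Cebpd by 1.12 and 1.09, and Stat3 itself by 0.60 and 0.82. Il6 was near the background, with group means between 0.97 and 1.57, and was not called. Without the acinar-rich arrays 5 genes rose in palm oil and 4 in control mice.

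Of 10 genes of glucocorticoid signalling, 7 rose in palm oil and 6 in control mice, and 0 fell in either. Zbtb16 rose by 2.38 and 1.58, the phosphatase gene Dusp1 by 1.79 and 1.41, Fkbp5, a chaperone partner of the receptor, by 1.04 and 1.13, and Tat (tyrosine aminotransferase) by 0.83 and 0.67. Sgk1, a kinase gene, rose by 0.53 and 0.52. The receptor gene Nr3c1 differed by 0.17 in each and was not called. Without the acinar-rich arrays 5 and 4 genes of this list rose, and with a term for the basal animals numbered 44 or higher 7 and 3.

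Of 10 oxidative stress genes linked to NRF2, Hmox1, the inducible heme oxygenase, rose by 2.00 in palm oil and 2.27 in control mice. Gclc fell in palm oil mice, as given above, and the other genes of that list did not pass. These lists were chosen with earlier results of these data known, and their part in the metallothionein rise was not tested.

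The genes most like each zinc gene, by Pearson's r over the 32 arrays with group means removed and among 10340 brighter genes, differed between Mt1 and Slc39a14. After Mt2, Mt1 was followed by Pawr (0.651), the stress gene Gadd45g (0.638), the interleukin-1 receptor gene Il1r1 (0.636) and Igfbp1 (0.615). Igfbp1 encodes a binding protein known as insulin-repressed. With the group means kept, its r with Mt1 over the 32 arrays was 0.930, so it went with Mt1 between groups too. Mt2 was followed, after Mt1, by Ano7 (0.665), Emc8 (0.635), Uap1 (0.608) and Clcn6 (0.594). Slc39a14 was nearest to Apcs (0.859), the mouse acute-phase protein serum amyloid P, then Qsox1 (0.849), Pja2 (0.813), Derl1 (0.810) and Fndc3b (0.796). These values describe the 32 arrays, whose spread all genes share, and carry no test.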

How the data were processed

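Per the labels' protocols, amplified and biotin-labelled liver RNA was read on Affymetrix Mouse Gene 2.1 ST arrays. The submitters' processing notes name RMA and Expression Console 1.3.0.187 as the source of the log2 values that the authors deposited, and no step was added to them. RMA compresses low values towards the background. The number of arrays limits the precision.

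The table held 41345 probe sets, of which an annotation gave 23521 1 gene symbol, 1814 several and 16010 none. Of several probe sets of a gene the one with the highest mean was taken. Levels of different genes were not ranked, and Mt2 minus Mt1 was used only to compare groups.

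A linear model with 1 mean per group was fitted to the 32 arrays in limma 3.58.1 under R 4.3.3, with moderated variances and 28 residual degrees of freedom, adjusted by Benjamini-Hochberg over 22180 genes, threshold 0.05. The code was tested on simulated data. Correlations used 100000 permutations, other permutation tests ran over all regroupings (named exact here) and were two-sided.

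Groups came from the sample titles. Replicate numbers were not taken to pair the samples: over 42 pairs of arrays with the same number, the correlation of deviations had a median of 0.0093 (-0.23 to 0.29). It was over 0.1 in 10 of them. Between palm oil basal and control basal mice it reached 0.29 and 0.25 at replicates 3 and 7. It was -0.07 and -0.17 there at replicates 4 and 5.

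Named genes were the zinc genes, at most 4 called genes per list and contrast by smallest p, and the 5 genes nearest to a member. The genes and lists were chosen with earlier results of these data known. Alternatives were the gene filter, probe set mean, centring, quantile normalization, prior, array weights, replicate block, groups in the fit, threshold, exact tests, the basal animals numbered 44 or higher, acinar marker level, array spread, and leaving out each array.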

Additional observations from a re-analysis of the deposited data

Results flagged for a closer look

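Among 20 groups of values (5 zinc genes in 4 groups of mice), 5 held a mouse whose distance from its nearest neighbour was large for the range of its group by Dixon's criterion, which chance meets in about 1 group in 20. All 5 were in clamped mice. The criterion sets the distance against the range of the same group, so the narrow ranges of Mt1 and Mt2 there do not raise it. Mt1 was highest in palm oil clamped replicate 6 (9.85) and lowest in control clamped replicate 1 (9.48). Mt2 was highest in control clamped replicate 6 (10.97). Mtf1 was lowest in palm oil clamped replicate 3 (4.78). Slc39a14 was lowest in palm oil clamped replicate 1 (7.63), the mouse that overlapped with the basal range.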

How the results depend on the processing

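The 3 of 5 zinc genes called in clamped against basal mice were the same in 15 other limma settings and in 32 fits that each left out 1 array, in both gavage groups. In palm oil mice Mt1 lay between 1.05 and 1.21 over these, Mt2 between 0.90 and 1.15 and Slc39a14 between 0.78 and 0.98 (highest limma adjusted p = 0.0458, without the acinar-rich arrays). In control mice the ranges were 1.04 to 1.43 for Mt1, 1.05 to 1.38 for Mt2 and 1.11 to 1.44 for Slc39a14. With the replicate number as a block, 3 genes were called in each gavage group and 0 in the other comparisons, so the block changed no call. In palm oil against control clamped mice 1 gene (Mt2) passed the exact permutation test without adjustment. In clamped against basal control mice Mtf1 passed it too (0.25, unadjusted p = 0.0431), which it did not do in limma. Mt2 minus Mt1 in palm oil mice was -0.19 after repeated quantile normalization (exact permutation p = 0.0372), and ranged from -0.18 to -0.11 without 1 array. Of 10 pairs of genes 2 correlated, and 3 with group means split at animal 44 or with the array spread removed. Calls over all genes numbered 1678 in palm oil mice (736 without the acinar-rich arrays) and 1940 in control mice (993 without those, 1026 without the basal animals numbered 44 or higher). Slc30a1, Slc30a10, protein and zinc itself were not measured here. The clamp's components cannot be told apart.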
